A study of Mus musculus with 12 samples.

Results

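The 8 genes described here encode G protein-coupled receptors for small metabolites, namely Ffar1, Ffar2, Ffar3 and Ffar4, Hcar1 and Hcar2, Sucnr1 and Gpr84. They were 8 of the 22180 genes measured. They were grouped by their known ligands, with earlier results of these data known, and Ffar2 was chosen by its lower signal in AKO iWAT at both temperatures. All values of Ffar2 that compare AKO with flox are therefore given as a description with no test. The study profiled inguinal fat (iWAT), which lies under the skin of the groin in mice, on 12 arrays in 4 groups of 3. Values are log2 signals made with RMA, so that a difference of 1 is a doubling.

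The flox group carried floxed alleles of Baf60a, the gene now named Smarcd1, with no deletion. The AKO group (adipocyte-specific knockout) carried the same floxed alleles and lost BAF60a, a subunit of SWI/SNF chromatin remodelling complexes, through Cre recombinase driven by the Adiponectin promoter. That promoter is active in adipocytes, so the other cells of the fat pad kept the gene. Each genotype was sampled at room temperature (RT, 22 °C) and in chronic cold, where mice were adapted stepwise and then held at 10 °C for 7 days. The labels give an age of 9 months, while the methods of the study state a younger range for cold acclimation. Each array carried pooled RNA of 1 or 2 mice, and sex and batch were not given in the sources used here.

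Short-chain fatty acids such as acetate act on FFAR2 and FFAR3, and longer fatty acids act on FFAR1 and FFAR4. Lactate acts on HCAR1, the ketone body beta-hydroxybutyrate and niacin on HCAR2, succinate on SUCNR1, and medium-chain fatty acids on GPR84. In adipocytes HCAR1, HCAR2 and FFAR2 couple to inhibitory G proteins, which lower cyclic AMP and restrain the release of fatty acids from stored fat.

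At RT Smarcd1 ran from 6.42 to 6.91 in flox and from 5.89 to 6.30 in AKO, without overlap, as for 11.3% of all genes. In cold it ran from 6.27 to 6.89 in flox and from 6.26 to 6.37 in AKO, and the groups overlapped. Neither the difference at RT (-0.44, limma unadjusted p = 0.033, adjusted p = 0.782) nor that in cold (-0.25, adjusted p = 0.915) passed the test. By qPCR the paper reports efficient deletion in mature iWAT adipocytes and not in stromal vascular cells. Skeletal muscle markers varied most among the arrays. Their mean over 12 genes, relative to the mean of all arrays, ran from -1.78 to 0.98 in flox RT, from -1.79 to 2.82 in AKO RT, from -1.68 to 0.84 in flox cold and from -2.17 to 3.36 in AKO cold. The mean of mature adipocyte markers (13 genes) differed little between groups, from -0.09 to 0.07, with 1 array (flox RT 2) at -0.35. Of these genes Lep alone passed the limma test, for cold against RT. It differed by -1.52 in AKO (adjusted p = 0.0109) and by -0.87 with both genotypes averaged (adjusted p = 0.0164). Without the 2 arrays highest in muscle markers neither passed (adjusted p = 0.157 and 0.0881). The cold response was lower in AKO than in flox for 13 of 13 genes, and 0 passed. In bulk tissue fewer cells of a type and less RNA per cell cannot be told apart. All p-values rest on the spread among 3 arrays in each group, and a receptor counted as called at a limma adjusted p below 0.05 over all 22180 genes. The number of arrays limits the precision.

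The promoter windows of Ffar2, which had the largest genotype difference, and of Hcar1, 1 of the 2 receptors called in cold, are shown first. They run from 250 bases before to 50 bases after a gene start, 5′ to 3′ on the gene's strand, and come from RefSeq on GRCm38.p6, where 7 of the 8 receptor genes had a window and Hcar2 had none. Ffar2 had 4 windows, of which the outermost and an inner one are printed. Capitals mark the letters of 4 motifs searched on both strands. These were the nuclear receptor half-site AGGTCA, the EBF motif CCCNNGGGA, the C/EBP motif TTGCNNAA and the cyclic AMP response element half-site TGACG.
Ffar2 outermost start, chr7:30823726-30824025, minus strand: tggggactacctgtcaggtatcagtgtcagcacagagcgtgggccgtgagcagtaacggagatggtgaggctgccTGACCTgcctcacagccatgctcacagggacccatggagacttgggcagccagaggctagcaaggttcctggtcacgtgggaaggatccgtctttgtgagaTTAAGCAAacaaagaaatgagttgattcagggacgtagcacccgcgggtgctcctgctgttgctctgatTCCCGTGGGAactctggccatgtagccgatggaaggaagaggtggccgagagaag
Ffar2 inner start, chr7:30821143-30821442, minus strand: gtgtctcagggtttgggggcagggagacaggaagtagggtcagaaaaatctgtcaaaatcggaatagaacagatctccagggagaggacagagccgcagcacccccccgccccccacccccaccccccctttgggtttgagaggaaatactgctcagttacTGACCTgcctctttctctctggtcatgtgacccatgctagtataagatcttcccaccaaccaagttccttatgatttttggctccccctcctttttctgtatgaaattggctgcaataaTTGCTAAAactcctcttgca
Hcar1, chr5:123879954-123880253, minus strand: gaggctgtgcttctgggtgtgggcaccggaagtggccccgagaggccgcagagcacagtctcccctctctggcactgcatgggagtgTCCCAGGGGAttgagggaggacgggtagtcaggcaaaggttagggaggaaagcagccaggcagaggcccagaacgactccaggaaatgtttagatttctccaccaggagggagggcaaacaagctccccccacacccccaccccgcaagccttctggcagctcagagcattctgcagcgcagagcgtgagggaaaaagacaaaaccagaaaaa

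The outermost Ffar2 window held 1 stretch with the letters of the nuclear receptor half-site, 1 with those of the EBF motif and 1 with those of the C/EBP motif, and the inner window held the first and the last of these. The Hcar1 window held 1 EBF stretch and none of the other motifs. In both cases the EBF letters could be read on either strand of the same stretch, and no stretch of 1 motif overlapped another. Of 32851 promoter windows of the same length, 16.3% held the nuclear receptor half-site, 6.56% the EBF motif, 10.8% the C/EBP motif and 20.8% the cyclic AMP half-site. The windows of Ffar1, Ffar4 and Sucnr1 held none of the 4, that of Gpr84 held 1 nuclear receptor half-site and that of Ffar3 held 1 stretch of the cyclic AMP motif. A match is a description of letters and not of binding.

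Of the short-chain fatty acid receptors, Ffar2 had the largest genotype difference among the 8 genes. Its signal was 6.61, 6.27 and 6.37 in the 3 flox RT arrays, and 4.06, 3.84 and 4.25 in AKO RT. In cold it was 6.17, 6.82 and 6.75 in flox, and 4.83, 4.31 and 4.76 in AKO. All 6 AKO arrays lay below all 6 flox arrays. The AKO mean was 5.16-fold lower at RT (log2 difference -2.37, SE 0.19) and 3.85-fold lower in cold (-1.94, SE 0.19), which are the values that chose the gene. The AKO RT values lay little above the median of all values (3.64). RMA gives no detection call, so the size of these folds is uncertain. Ffar2 is 1 of the 7 genes called lower in AKO at both temperatures, a count that follows from its choice and is no test of it. Of the other receptors, none was called between genotypes. Their smallest limma adjusted p was 0.709 at RT (Hcar2) and 0.237 in cold (Sucnr1).

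The choice of Ffar2 did not compare cold with RT. The cold values within a genotype share arrays with the values that chose it, so their p-values are not free of the choice. In flox iWAT, cold moved Ffar2 by 0.16 (95% interval -0.26 to 0.59, limma adjusted p = 0.853), and the 2 groups overlapped. In AKO iWAT the cold level was 1.50 times that at RT (0.58, 95% interval 0.16 to 1.01, unadjusted p = 0.0114, adjusted p = 0.297), and all AKO cold arrays lay above all AKO RT arrays. AKO cold and AKO RT did not overlap for 17.2% of all genes, and the Ffar2 difference did not pass the test over all genes. With both genotypes averaged, cold against RT gave 0.37 (adjusted p = 0.257). The difference between the genotypes in the cold response was 0.42 (SE 0.28), a combination of the values that chose the gene.

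Ffar3, the second receptor for short-chain fatty acids, known from sympathetic ganglia, lay below the median of all values (3.64) in all 12 arrays. Its signal ran from 1.21 to 1.77 in flox RT, from 1.22 to 1.38 in AKO RT, from 1.50 to 2.47 in flox cold and from 1.29 to 1.50 in AKO cold. RMA gives no detection call, so a level above background was not shown and the size of its differences is uncertain. The genotype differences were -0.18 (RT, adjusted p = 0.932) and -0.61 (cold, adjusted p = 0.577), and 0.51 in flox and 0.08 in AKO between cold and RT (adjusted p = 0.464 and 0.945).

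**Figure D1:**
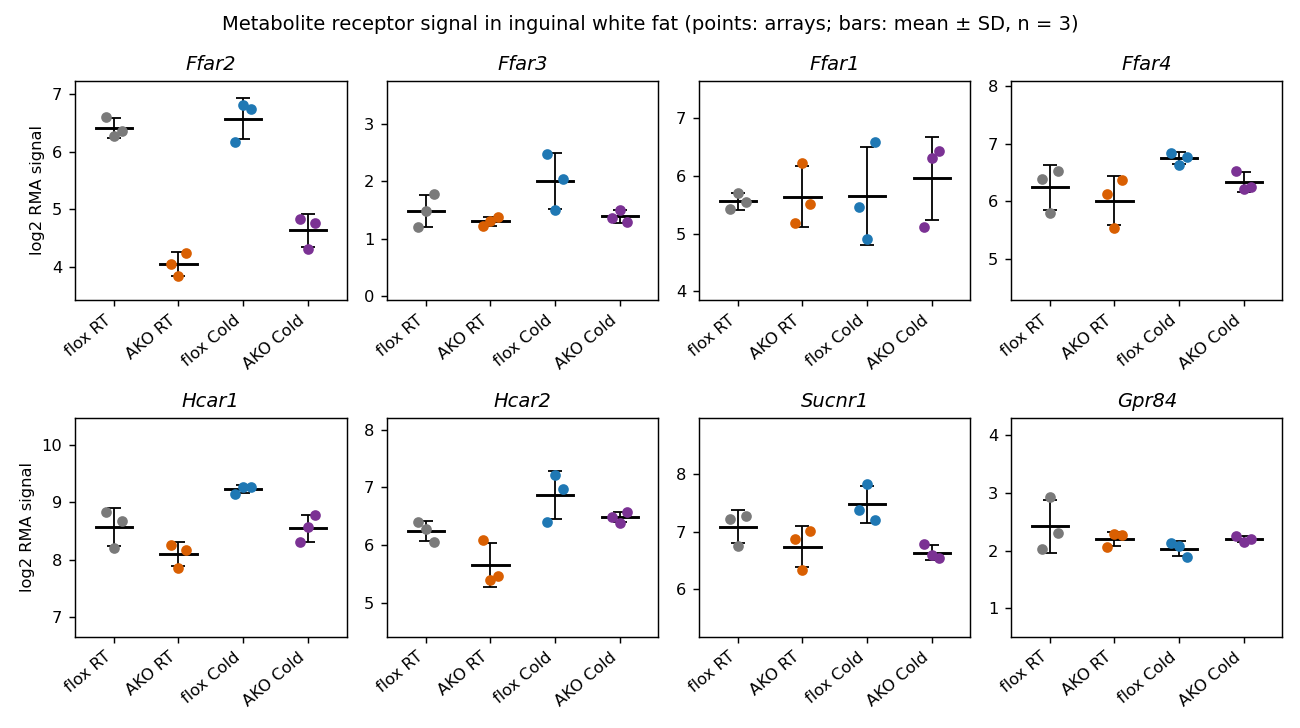
Log2 RMA signal of the 8 receptors (vertical axis) in the 4 groups (horizontal axis), with points for arrays and bars for the mean and SD of 3 arrays. Each panel spans the same number of log2 units, and Ffar2 is the receptor whose flox and AKO arrays are farthest apart, with AKO values from 3.84 to 4.83 and flox values from 6.17 to 6.82.

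Hcar1, the lactate receptor, rose in cold and had its highest values in flox cold. The signal was 8.84, 8.20 and 8.68 in flox RT, and 8.26, 7.86 and 8.17 in AKO RT. In cold it was 9.15, 9.27 and 9.27 in flox, and 8.31, 8.57 and 8.78 in AKO. The flox cold arrays lay above all other arrays, and the flox RT and AKO RT arrays overlapped. With both genotypes averaged, Hcar1 rose 1.47-fold in cold (0.56, SE 0.12, limma adjusted p = 0.0463). AKO minus flox was -0.58 with both temperatures averaged (SE 0.12, adjusted p = 0.0779), which did not pass the threshold. Taken apart, the genotype differences were -0.47 (RT, adjusted p = 0.713) and -0.68 (cold, adjusted p = 0.265).

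Hcar2, the receptor for beta-hydroxybutyrate, showed a cold response of similar direction. Its signal was 6.39, 6.27 and 6.05 in flox RT, and 6.09, 5.40 and 5.47 in AKO RT. In cold it was 6.40, 7.22 and 6.98 in flox, and 6.49, 6.39 and 6.57 in AKO. Within each genotype all cold arrays lay above all RT arrays, and in flox the margin was narrow, 6.40 against 6.39. Of all genes, 12.9% did not overlap between cold and RT in flox and 17.2% in AKO. Hcar2 rose 1.66-fold in cold with both genotypes averaged (0.73, SE 0.15, adjusted p = 0.0366). In flox the difference was 0.63 (adjusted p = 0.375) and in AKO 0.83 (adjusted p = 0.149), neither past the threshold, and the difference between the genotypes was 0.20 (95% interval -0.47 to 0.87, adjusted p = 0.986). The genotype differences were -0.59 (RT, adjusted p = 0.709) and -0.39 (cold, adjusted p = 0.866).

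Both cold calls rested on small margins. They were lost in 11 of 12 (Hcar1) and 10 of 12 (Hcar2) fits that left out 1 array. Without the 2 arrays of the highest muscle signal, AKO RT 2 and AKO cold 3, the adjusted p was 0.199 for Hcar1 and 0.167 for Hcar2 (differences 0.44 and 0.64).

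Sucnr1, the succinate receptor, did not overlap between the genotypes in cold, as for 11.3% of all genes. Its signal was 7.21, 6.75 and 7.28 in flox RT, and 6.87, 6.33 and 7.00 in AKO RT. In cold it was 7.38, 7.82 and 7.21 in flox, and 6.78, 6.58 and 6.54 in AKO. At RT the groups overlapped, and in cold all flox arrays lay above all AKO arrays. The cold difference was -0.84, a 1.79-fold lower level (95% interval -1.29 to -0.38, unadjusted p = 0.0018, adjusted p = 0.237), so it did not pass the test over all genes. The difference at RT was -0.34 (adjusted p = 0.876). Cold moved it by 0.39 in flox and by -0.10 in AKO (adjusted p = 0.617 and 0.927), and the difference between the genotypes was -0.49 (95% interval -1.14 to 0.15, adjusted p = 0.979).

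Ffar4, a receptor for long-chain fatty acids that adipocytes express, ran from 5.80 to 6.53 in flox RT, from 5.53 to 6.36 in AKO RT, from 6.63 to 6.84 in flox cold and from 6.21 to 6.53 in AKO cold. In cold the flox arrays lay above the AKO arrays (-0.41, adjusted p = 0.838), and in flox the cold arrays lay above the RT arrays (0.51, adjusted p = 0.498). Of all genes, 11.3% and 12.9% did not overlap in these comparisons, and neither Ffar4 difference passed the test. The lowest flox RT value was that of the array lowest in mature adipocyte markers. Over 12 arrays Pearson's r with the mean of those markers was 0.62 for Ffar4 and 0.52 for Sucnr1, and after subtracting group means it was 0.84 and 0.82. The relation was not limited to adipocyte markers. Over 12 arrays r was -0.64 for Ffar4 with dendritic cell markers and -0.70 for Sucnr1 with neutrophil markers. After subtracting group means, r of Sucnr1 was 0.76 with endothelial and -0.72 with dendritic cell markers. The part of these relations in the differences was not tested.

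**Figure D2:**
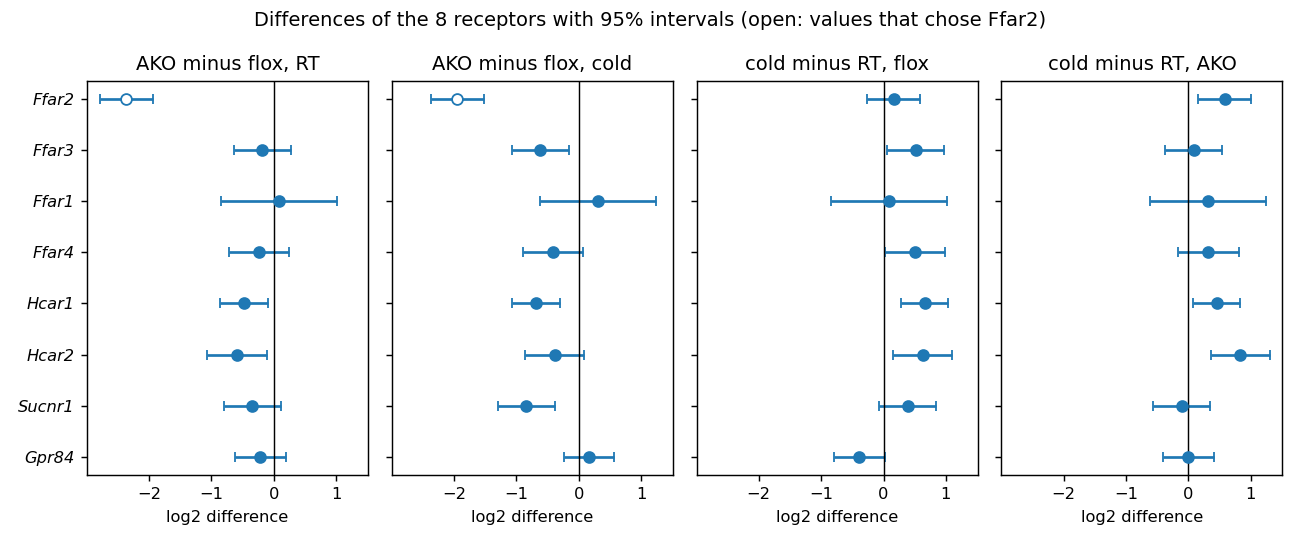
Log2 differences of the 8 receptors (horizontal axis, points) with 95% intervals from the limma fit (bars), in 4 comparisons of 3 against 3 arrays. Open points are the 2 Ffar2 values that chose it (-2.37 and -1.94), and the widest intervals are those of Ffar1.

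Ffar1, known as the long-chain fatty acid receptor of pancreatic beta cells, varied more within groups than between them. The signal was 5.43, 5.71 and 5.54 in flox RT, and 5.19, 6.22 and 5.52 in AKO RT. In cold it was 5.46, 4.91 and 6.58 in flox, and 5.12, 6.32 and 6.43 in AKO. All 4 groups overlapped, and the genotype difference was 0.08 at RT and 0.30 in cold (95% intervals -0.85 to 1.01 and -0.63 to 1.23). The highest array, flox cold 3, also had the highest mean of 7 B cell markers (0.73). Over 12 arrays the r of Ffar1 was 0.87 with that mean, and 0.90 with Cd22, a B cell surface receptor whose gene is the next one on chromosome 7. With the other 6 B cell markers r ran from 0.77 (Blk) to 0.89 (Cd79a). All 7 were above the median of all values on average, with means between 7.51 and 10.16. The array means of B cell markers ran from -0.24 to 0.34 in flox RT, from -0.38 to 0.20 in AKO RT, from -0.45 to 0.73 in flox cold and from -0.45 to 0.46 in AKO cold. The relation was not limited to B cell markers, since r over 12 arrays was 0.58 with T cell and -0.82 with endothelial markers. After subtracting group means r was 0.92 with B cell, 0.83 with T cell and -0.86 with endothelial markers. The part of B cell RNA, or of RNA of other cells, in the Ffar1 signal was not tested.

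**Figure D3:**
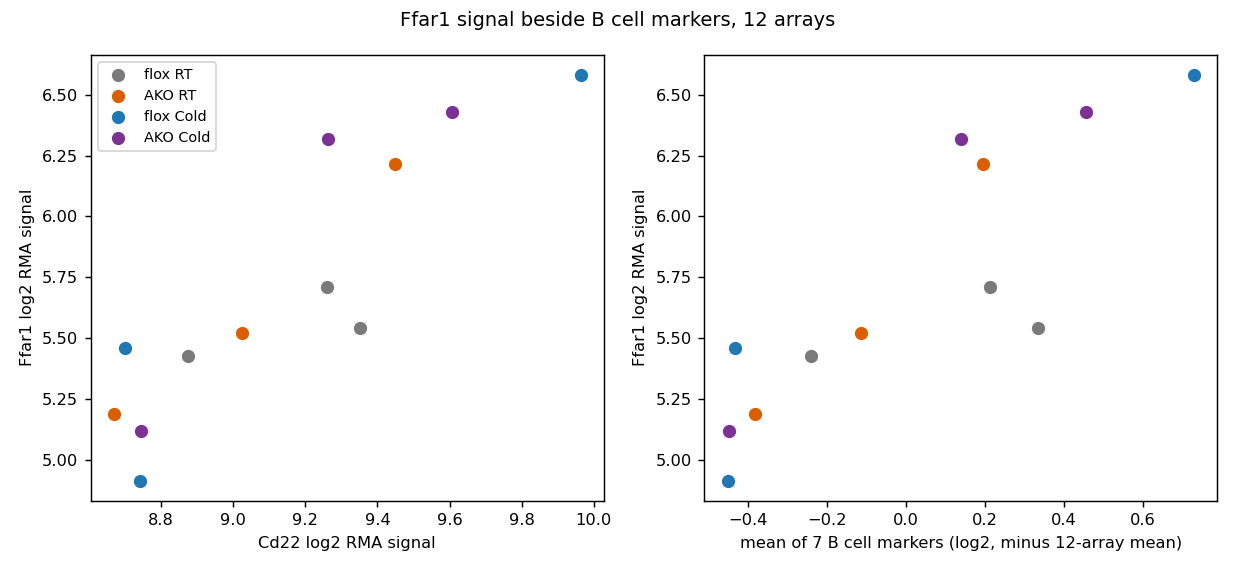
Ffar1 log2 RMA signal (vertical axis) against the signal of Cd22 (left) and against the mean of 7 B cell markers relative to all arrays (right), 1 point per array coloured by group. The points rise together (r = 0.90 and 0.87 over 12 arrays), and flox cold 3 is highest on all axes.

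Gpr84, a receptor for medium-chain fatty acids known from myeloid cells under inflammation, lay below the median of all values in all 12 arrays, from 1.88 to 2.93. Its genotype differences were -0.22 (RT, adjusted p = 0.92) and 0.16 (cold, adjusted p = 0.98), and those between cold and RT were -0.39 in flox and 0.00 in AKO (adjusted p = 0.562 and 0.998). As for Ffar3, a level above background was not shown. Macrophage markers were lower in cold for 15 of 15 genes with both genotypes averaged (median -0.34), and 0 were called by limma. An unadjusted p below 0.05 was reached by 9, beside 2922 of all 22180 genes. Adipocyte progenitor markers were lower in cold for 8 of 8 genes (median -0.35), and the collagen genes Col1a1 and Col3a1 were called, also without the 2 muscle-rich arrays and with the replicate number as a block. Their mean relative to all arrays was 0.14 in flox RT, 0.30 in AKO RT, -0.25 in flox cold and -0.20 in AKO cold. The part of either marker list in the cold differences of the receptors was not tested.

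Counted over the set, 7 of 8 receptors were lower in AKO at RT, where the median difference was -0.29 against -0.01 for all genes, and 1 (Ffar2, by its choice) was called beside 0.144% of all genes. In cold 6 of 8 were lower (median -0.51 against 0.00), again with Ffar2 alone called, by its choice, beside 0.212% of all genes. Leaving out Ffar2, whose separation follows from its choice, the groups did not overlap for 0 of 7 receptors at RT and for 4 of 7 in cold, beside 11.3% of all genes in each comparison. These 4 were Hcar1, Sucnr1 and Ffar4, which were lower in AKO, and the dim Gpr84, which was higher (0.16). Without Ffar2 the medians were -0.23 and -0.41, and 0 of the other 7 receptors were called. An unadjusted limma p below 0.05 was reached by 2 of them at RT and 3 in cold, beside 1364 and 1394 of all 22180 genes. The 3 in cold include Ffar3, whose level above background was not shown. With both temperatures averaged, which combines the values that chose Ffar2, 6 of the other 7 receptors were lower and 0 were called, beside 0.537% of all genes. Of these 7, 4 had an unadjusted limma p below 0.05, Ffar3 among them, beside 1604 of all 22180 genes. The RT and cold comparisons use different arrays, but the averaged comparison uses the arrays of both. All rest on a shared estimate of the spread, so these counts are not independent of each other.

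In cold against RT, 7 of 8 receptors were higher in flox (median 0.45, all genes -0.01) and 6 of 8 in AKO (median 0.32, all genes 0.00). In flox 0 receptors were called beside 0.00902% of all genes. Without Ffar2 an unadjusted limma p below 0.05 was reached by 4, Ffar3 among them, beside 2093 of all 22180 genes. In AKO 0 were called beside 0.464% of all genes. Without Ffar2, 2 were below that unadjusted threshold, beside 2188 of all genes. The groups did not overlap for 3 of 8 receptors in flox, beside 12.9% of all genes, and for 3 of 8 in AKO, beside 17.2%. With both genotypes averaged, Hcar1 and Hcar2 were called, which is 2 of 8 beside 1.83% of all genes. For the difference of the cold response between genotypes 0 of 8 were called beside 0.018% of all genes. An unadjusted limma p below 0.05 was reached by 0 of the 7 receptors without Ffar2, beside 1061 of all 22180 genes. A p that misses the threshold does not show that a receptor did not differ.

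Ffar1, Ffar2 and Ffar3 lie next to each other on chromosome 7, and Hcar1 and Hcar2 lie together on chromosome 5. Of the 10 measured neighbours of the Ffar genes and the 10 of the Hcar genes, 0 were called by limma in either genotype comparison, and 0 had an unadjusted p below 0.05. Of all 22180 genes, 1364 at RT and 1394 in cold had an unadjusted limma p below 0.05. The largest neighbour difference was that of Dmkn at RT (-0.75, SE 0.59), an epidermal gene. Ffar3 and Ffar1 follow Ffar2 directly and differed by -0.18 and 0.08 at RT and by -0.61 and 0.30 in cold. Neither was called. The cold difference of Ffar3 had an unadjusted limma p of 0.0131, and a level of Ffar3 above background was not shown.

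**Figure D4:**
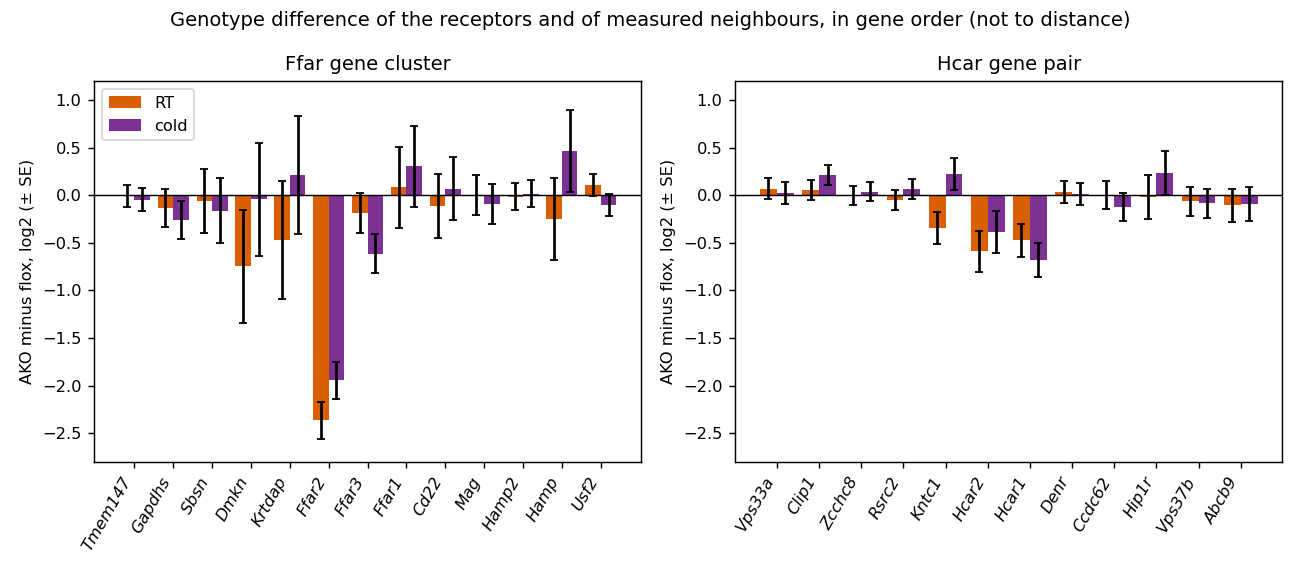
Log2 difference of AKO minus flox (vertical axis, bars, with SE as error bars) at RT and in cold for the receptor genes and measured neighbours in gene order (horizontal axis, not to distance). Ffar2 stands at -2.37 and -1.94, while the neighbours shown lie between -0.75 and 0.46.

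The genes whose signal was most like that of Ffar2 over 12 arrays were Cyp2f2 (r = 0.94), Cbs (0.94), Apoc1 (0.94), Wfdc21 (0.93) and Cnr1 (0.93), among 11842 genes above the median. The genotype difference that chose Ffar2 enters these values. After subtracting group means r was -0.31 for Cyp2f2, 0.72 for Cbs, 0.43 for Apoc1, 0.33 for Wfdc21 and 0.31 for Cnr1. The closest to Sucnr1 were Lmo4 (0.99) and Adh1 (0.97), and their r after subtracting group means was 0.97 and 0.93. Hcar1 was closest to Xpnpep3 (0.94) and Ndrg2 (0.91), Hcar2 to Ephx2 (0.90), and Ffar4 to Pxmp4 (0.95). Among the receptors, r was 0.82 for Hcar1 and Hcar2 and 0.81 for Hcar1 and Ffar4, and 0.36 and 0.55 after subtracting group means.

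Genes that make or move the ligands were examined from lists chosen for the purpose. Beside the counts that follow, 1.83% of all genes were called for cold with both genotypes averaged. For genotype with both temperatures averaged the share was 0.537%. Of 13 measured genes of succinate production and transport, 8 rose in cold with both genotypes averaged and none fell past the test (median 0.40 against 0.00 for all genes). They included Sdha, Sdhb, Sdhc and Sdhd, the subunits of succinate dehydrogenase, which oxidizes succinate (0.36, 0.47, 0.40 and 0.53, adjusted p = 0.0315, 0.0122, 0.025 and 0.0126). Slc25a10, the mitochondrial dicarboxylate carrier that moves succinate, differed by -1.05 between AKO and flox at RT (adjusted p = 0.0439) and by -1.05 in cold (adjusted p = 0.0302), and rose in cold by 0.55 (adjusted p = 0.0432). It was the 1 gene of this list called between genotypes. Without the 2 muscle-rich arrays the calls of this list for cold fell from 8 to 1 (Sdhd), while the median was 0.41. With the replicate number as a block they were 3. Slc25a10 remained called between genotypes only when both temperatures were averaged (adjusted p = 0.0128 without the 2 arrays).

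Of 11 genes of acetate and short-chain fatty acid handling, 3 rose in cold and none fell past the test. Acss2, which turns acetate into acetyl-CoA, rose by 1.23 (adjusted p = 0.000813), and Acot12, a dim gene for acetyl-CoA hydrolysis, by 0.51 (adjusted p = 0.0124). Acot12 was also higher in AKO in cold (0.73, adjusted p = 0.0313). Slc16a1, a monocarboxylate transporter that carries lactate, ketone bodies and acetate, rose by 0.65 (adjusted p = 0.0136) and was higher in AKO by 0.98 in cold (adjusted p = 0.0289) and by 0.79 with both temperatures averaged (adjusted p = 0.00652). Of 9 lactate genes, Slc16a1 and Ldhd, a D-lactate dehydrogenase (0.95, adjusted p = 0.00658), rose in cold, while Ldha, which makes lactate from pyruvate, measured 0.07 (adjusted p = 0.767). Of 6 ketone body genes, Acat1 was the 1 that rose (0.34, adjusted p = 0.0441). Without the 2 muscle-rich arrays Acss2 and Ldhd were called and the other 3 cold calls were lost, with differences of 0.68 for Slc16a1, 0.44 for Acot12 and 0.32 for Acat1. Between genotypes in cold, the calls of Slc16a1 (1.08, adjusted p = 0.0898) and Acot12 (0.69, adjusted p = 0.138) were lost as well, while Slc16a1 averaged over both temperatures was called (0.86, adjusted p = 0.0237).

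Of 14 genes for the release and oxidation of longer fatty acids, 6 rose in cold (median 0.29), among them Acadvl, a very long-chain acyl-CoA dehydrogenase (0.84, adjusted p = 0.000994), and Cpt2, a mitochondrial carnitine palmitoyltransferase (0.70, adjusted p = 0.00319), and 0 were called between genotypes with both temperatures averaged (limma, 2 with an unadjusted p below 0.05). Without the 2 muscle-rich arrays Cpt2 and Acadvl were the 2 called. Of 19 other measured metabolite receptors 0 were called by limma, with 0 (genotype) and 2 (cold) at an unadjusted p below 0.05, and their median was -0.07 for genotype and -0.03 for cold. Of 18 G protein subunits and arrestins 0 were called, with 1 (genotype) and 2 (cold) at that unadjusted threshold, and of 4 further inhibitory receptors 0, with 1 and 1. Of all 22180 genes, 1604 (genotype) and 2922 (cold) were below it in limma, and 0.537% and 1.83% were called. Among 14 cyclases and phosphodiesterases, Adcy10, a dim gene for the soluble cyclase, rose in cold (0.89, adjusted p = 0.00711), and Pde4a, which degrades cyclic AMP, was higher in AKO (0.59, adjusted p = 0.0112). Beige adipocyte markers moved with both factors, with 7 of 8 rising in cold and 5 of 8 higher in AKO when averaged, and group means from -1.28 in flox RT to 2.20 in AKO cold. Their part in the receptor differences was not tested.

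**Figure D5:**
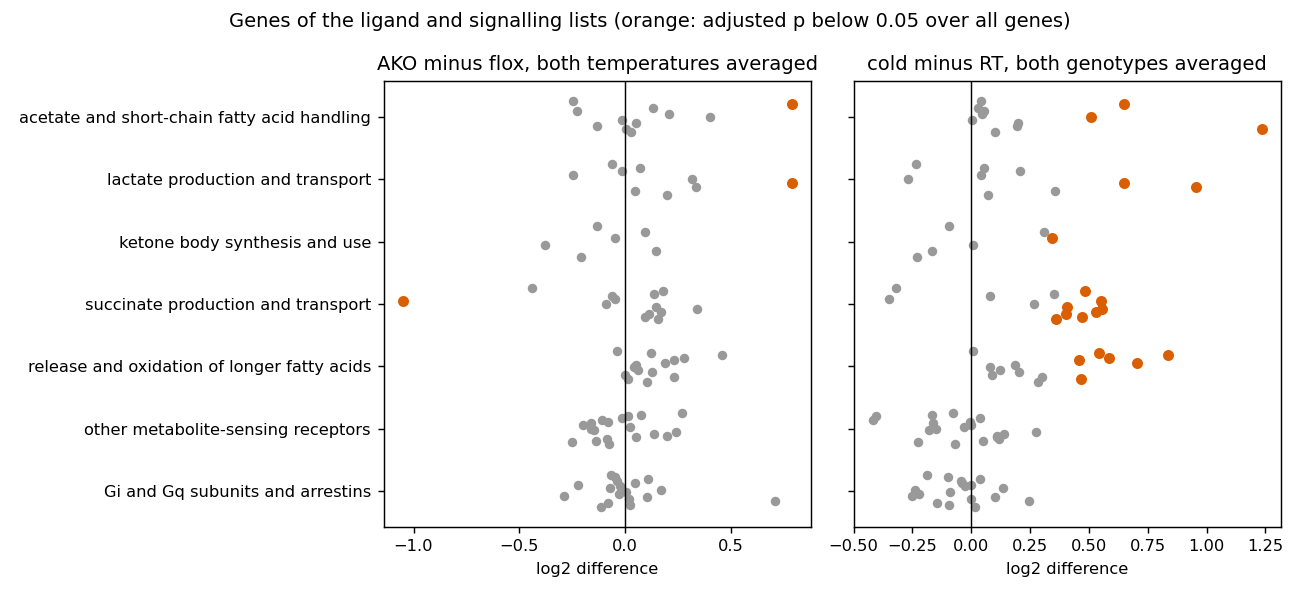
Log2 differences (horizontal axis) of the genes in 7 ligand and signalling lists (rows), AKO minus flox on the left and cold minus RT on the right, 1 point per gene and orange where the adjusted p was below 0.05. Orange points lie right of 0 in cold, and Slc25a10 at -1.05 is the 1 orange point left of 0 by genotype.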

How the data were processed

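RNA of 12 iWAT samples was measured on single-colour Affymetrix arrays by the authors. The deposited values are log2 signals that the authors computed in R 3.1.1 by RMA, a method of background correction, quantile normalization and summary of the probes of a transcript cluster. The table held 41345 clusters, of which 23521 had 1 gene symbol, 1820 several and 16004 were not named here. The Entrez identifiers of 23328 were matched in RefSeq, which changed 0 symbols. Each gene was represented by its brightest single-gene cluster. RMA values have no depth and no detection call. Array medians were between 3.57 and 3.71.

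Group differences came from limma 3.58.1 under R 4.3.3 (1 mean per group, eBayes, two-sided, Benjamini-Hochberg over 22180 genes, 8 residual degrees of freedom), with no covariate. The methods name no test for the arrays. The members and gene lists were chosen with earlier results of these data known. The procedure was tested on simulated data. All 8 receptors are named, with list genes past the threshold or of smallest p, and the genes of highest correlation. Alternatives were centring, quantile normalization, a filter on dim genes, averaging clusters, trend and robust settings, the arrays of a comparison alone, a replicate block, the methods' t-test and leaving out each array. Leaving out the muscle-rich arrays was chosen after seeing the data, as were the promoter motifs.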

Additional observations from a re-analysis of the deposited data

How the results depend on the processing

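Of 1202 recomputed receptor differences, 1139 were counted as kept, 27 as losing the call, 9 as gaining it and 27 as changing sign. Kept meant the same direction and side of the threshold. For the genotype and interaction differences of Ffar2 it meant the same direction and a change below the SD within groups. Ffar2 was thus counted as kept with the methods' t-test after Benjamini-Hochberg, where it was not called at RT or in cold. Calls of Ffar2 for AKO against flox follow from its choice, so their return in other fits is no support for it. The receptors called for AKO against flox at RT were 1 (Ffar2) in each fit that left out 1 array, and 0 with the methods' t-test after Benjamini-Hochberg. In cold they were 4 and 0 with that test before and after adjustment, and with both temperatures averaged 2 with trend and robust settings and 2 without the 3 arrays richest in muscle or poorest in adipocyte markers (Hcar1 added, adjusted p = 0.034 and 0.0293), and from 1 to 2 leaving out 1 array (2 without flox RT 2). For cold against RT averaged they were 0 with the replicate block (adjusted p = 0.0547 for Hcar1 and 0.0708 for Hcar2), 0 without the 2 muscle-rich arrays, 0 without the 3 arrays, and from 0 to 1 leaving out 1 array. The unadjusted t-test gave 2 in AKO and 1 in flox for cold against RT. Whether the replicate numbers pair the arrays was not settled. After subtracting group means, 7 of 18 same-numbered pairs of arrays had r above 0.1 (from -0.35 to 0.41). The median r was 0.046 for same-numbered pairs and -0.018 for other pairs of different groups, which cannot exclude a shared batch.

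The fits without the 2 or the 3 arrays were chosen after seeing the data. All genes called numbered, for AKO against flox at RT, 7 with the 6 arrays alone, 1216 and 1 with the t-test before and after adjustment, 19 without the 2 arrays, 7 without the 3, and 12 to 52 leaving out 1. In cold these were 26, 1292, 1, 22, 23 and 23 to 53. Averaged they were 75 without the 2 arrays and 65 without the 3, and 85 to 127 leaving out 1. For cold against RT in AKO they were 68, 2220, 0, 19, 17 and 40 to 123, with 202 after the filter on dim genes and 212 with trend and robust settings. In flox they were 0, 1521, 0, 0, 0 and 0 to 104, with 16, 50 and, with the replicate block, 1. Averaged they were 130, 88 and 202 to 517. The interaction gave 1 without the 3 arrays and 4 to 13 leaving out 1.

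Sign changed in these differences, none of them called. Without the 2 and the 3 arrays Ffar1 gave -0.21 and -0.13 for AKO against flox at RT and -0.069 and -0.032 averaged. Without the 2 arrays Ffar4 gave 0.0060 at RT. Without the 3 arrays Gpr84 averaged 0.080 and Sucnr1 -0.017 for cold. Gpr84 for cold in AKO gave 0.015 when centred and 0.034 without the 2 or 3 arrays. Leaving out 1 array, Ffar1 ranged from -0.21 to 0.31 for genotype at RT, -0.065 to 0.77 in cold, -0.37 to 0.46 for cold in flox, -0.028 to 0.41 for cold averaged and -0.15 to 0.69 for the interaction. Ffar4 ranged from -0.45 to 0.0060 at RT and -0.42 to 0.037 for the interaction, Gpr84 from -0.42 to 0.037 at RT, -0.13 to 0.10 averaged and -0.072 to 0.035 for cold in AKO, Hcar2 from -0.029 to 0.42 for the interaction, and Sucnr1 from -0.31 to 0.031 for cold in AKO. The causes were not tested. Ffar3 and Gpr84 are limited by signal near background.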
